A study of Bos taurus and Bos grunniens and Bubalus bubalis with 15 samples.

Results

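The ubiquitin conjugating enzymes and the ubiquitin specific proteases of bovid back muscle were followed over 5 groups of animals. Members were the probe sets whose only gene symbol on the platform began with UBE2, or with USP followed by a digit, and each gene was represented by its probe set with the highest mean over the 15 arrays. The rule found 76 probe sets of 53 genes, of 9155 genes that had a probe set with a single symbol. Of the 53 genes, 26 were UBE2 genes and 27 were USP genes. A filter on dim probe sets left 48 of them for testing, 25 UBE2 and 23 USP genes, among 7139 genes and 14409 probe sets tested in all. The 5 genes below the filter were UBE2C, USP3, USP12, USP37 and USP50.

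Longissimus dorsi, the long muscle beside the spine, was taken from animals slaughtered at 36 months, and total RNA was hybridised to an Affymetrix bovine array. The groups were intact males, castrated males and females of Qinchuan cattle (Bos taurus), Qinghai yak (Bos grunniens) and Guangxi buffalo (Bubalus bubalis), with 3 biological replicates and 1 array per replicate. The cattle were born within 30 days of each other and raised under the same conditions, per the series' design text. No label gives the sex of the yak or buffalo, and those animals were not stated to share the cattle's rearing, so species, sex and rearing cannot be told apart in the species comparisons. The probes were designed on cattle sequence, so a difference in transcript level and a difference in probe match cannot be told apart either when yak or buffalo is set against cattle. In bulk muscle RNA, fewer cells of a type and less RNA per cell also cannot be told apart.

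Ubiquitin is a small protein that is joined to other proteins by a relay of activating (E1), conjugating (E2) and ligating (E3) enzymes. The UBE2 genes encode the conjugating step, in which a cysteine of the enzyme carries ubiquitin to the ligase and its substrate, and the choice of conjugating enzyme helps to set the kind of chain that is built. The USP genes encode cysteine proteases that take ubiquitin off again, and so recycle it, edit chains or spare proteins from the proteasome. In skeletal muscle this system removes myofibrillar proteins during wasting, through ligases such as FBXO32 (atrogin-1).

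The arrays held a muscle signal in every group. Summed over the 12 measured genes of a 15-gene skeletal muscle list, intensity lay between 135300 and 165600 on all arrays. The median log2 value of an array ran from 6.711 to 6.813, and no pair of arrays held identical values. The ratio of 3' to 5' actin control probe sets, which rises as RNA degrades, spanned 1.174 to 1.476 over the cattle arrays (highest in an intact male), against 1.493 to 1.928 in yak and 1.422 to 1.725 in buffalo. The same ratio for GAPDH spanned 1.129 to 1.339 over the cattle arrays, 1.203 to 1.257 in yak and 1.215 to 1.504 in buffalo. Macrophage markers were the most uneven: the summed intensity of 13 measured genes spanned 6148 to 29970 in intact males, 2485 to 4088 after castration, 1354 to 2483 in females, 1645 to 1789 in yak and 1091 to 1501 in buffalo. Summed intensity of 12 fibroblast genes spanned 38310 to 53140 in intact males, 15110 to 15780 after castration, 10830 to 14080 in females, 6643 to 8570 in yak and 4787 to 7714 in buffalo. Intact male 1 held the highest macrophage signal. It also stood farther from the mean of castrated males and females than the other cattle arrays, with a median size of difference of 0.304 (log2) over the members and 0.315 over all probe sets tested.

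The members varied to very different degrees over the groups. The span between the highest and lowest of the 5 group means had a median of 0.59 on the log2 scale over the 48 tested genes. It was smallest for USP46, a protease that works with the UAF1 protein (0.10), UBE2E3 (0.17) and UBE2D3 (0.19). It was widest for UBE2J2 (2.10), UBE2T (2.07), UBE2E1 (1.58), UBE2D4 (1.47), USP28 (1.37) and UBE2H (1.35). Buffalo was the lowest group for 20 of the 48 genes, 41.7%, where it was lowest for 36.3% of all genes tested. Yak was the highest group for 12 of the 48 genes, 25%, where it was highest for 22% of all genes tested. By family it was highest for 9 of 25 UBE2 genes, 36%, and 3 of 23 USP genes, 13%.

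**Figure D1:**
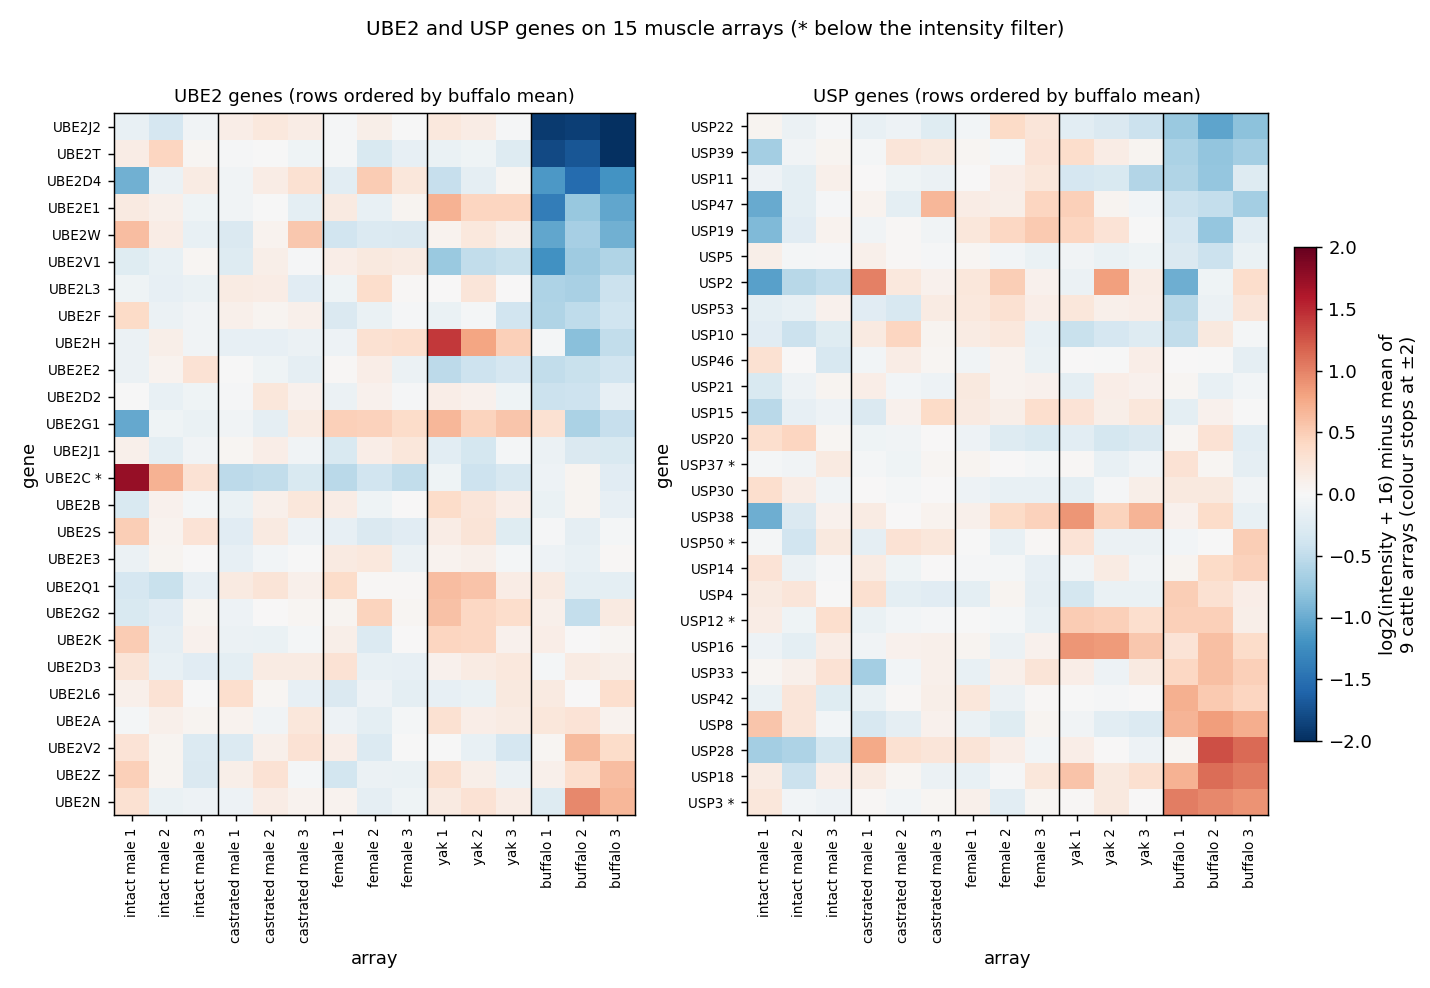
Each row is a gene and each column an array; colour shows log2(intensity + 16) minus the mean of the 9 cattle arrays, with rows ordered by the buffalo mean and an asterisk on genes below the filter. UBE2J2, UBE2T, UBE2D4 and UBE2E1 are darkest blue in the 3 buffalo columns, UBE2C stands out in intact male 1, USP18 and USP8 are red in all 3 buffalo columns, and USP28 in buffalo 2 and 3.

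The levels of UBE2B, UBE2D3, UBE2G1, UBE2E3 and UBE2E1, the UBE2 probe sets with the highest mean intensity, are given by group. UBE2B, which pairs with the ligases that mark histone H2B and read protein N-termini, had group means between 3804 (buffalo) and 4800 (yak). UBE2D3, a partner of very many ligases, lay between 3212 (intact males) and 3636 (yak), and its 15 arrays spanned 2799 to 3973. UBE2G1, which extends chains for cullin ligases, ranged more widely, from 2342 in intact males to 4414 in yak. Of UBE2E3 and UBE2E1, relatives that carry an extension before the catalytic core, UBE2E3 lay between 2005 and 2261 in every group mean, while UBE2E1 lay between 711.7 in buffalo and 2135 in yak. Intensities of different probe sets are not on a common scale, so these levels are read across groups and not between genes.

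Among the proteases, the brightest probe sets were those of USP47, USP28, USP38, USP14 and USP22. USP47, which acts on DNA polymerase beta among others, had group means from 1145 in buffalo to 1955 in females. USP14, the protease that docks on the proteasome and trims chains, varied little, from 832.4 in females to 1092 in buffalo. USP22, the protease of the SAGA complex that takes ubiquitin off histones, ranged from 458.3 in buffalo to 979.3 in females.

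The first comparison asked what castration did within males of the same breed. One gene, USP28, a nuclear protease known for stabilising the transcription factor MYC, was higher in castrated males. No tested conjugating enzyme passed the test, and no member passed as lower. So 1 of 48 members was higher at an adjusted p under 0.05, where 0.625% of all probe sets tested were higher, and 0 of 48 were lower, where 0.84% of all were. At an unadjusted p under 0.05 the members gave 5 higher (9.27% of all probe sets tested) and 1 lower (11.2% of all). The members' median difference was 0.045 on the log2 scale, beside 0 for all probe sets tested.

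USP28 intensity was 663.5, 689.8 and 836.4 in the 3 intact males and 1817, 1329 and 1267 in the 3 castrated males. It was 1288, 1183 and 1036 in the females. Every castrated male and every female lay above every intact male, and intact male 3 was the nearest to them. The castrated-minus-intact difference was 0.98 on the log2 scale (SE 0.18, 1.98-fold, adjusted p = 0.03706). This call was lost in 9 of 19 alternative settings, among them leaving out intact male 1 or 2, any castrated male or any female, with an adjusted p of up to 0.1281 (without intact male 2) and a difference of 0.82 to 1.08 throughout.

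USP2, whose level follows the circadian clock in many tissues, had the widest difference of the members between castrated and intact males without passing the test. Its intensity was 63.49, 98.71 and 105.2 in intact males, 326.3, 180.7 and 164.6 in castrated males and 182.2, 222.8 and 164.2 in females. The intact males did not overlap with either other cattle group, and castrated male 1 was the highest of the 9. The castrated-minus-intact difference was 1.15 (SE 0.25, log2, adjusted p = 0.06198). The female-minus-intact difference was 0.98 (SE 0.25, adjusted p = 0.05564).

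The other 4 members with the smallest p after castration did not pass either. Group means of UBE2Q1, a large and little studied conjugating enzyme, were 787.2 ± 82.33 in intact and 1117 ± 61.32 in castrated males (SD, n = 3), a difference of 0.50 (SE 0.15, log2, limma adjusted p = 0.1204). USP10, which acts on p53 and on endosomal cargo, had a difference of 0.52 (SE 0.16, adjusted p = 0.1243). For UBE2J2, an enzyme anchored in the endoplasmic reticulum membrane that serves the disposal of misfolded proteins, the difference was 0.34 (SE 0.13, adjusted p = 0.1864). The sixth was USP20, which recycles membrane receptors, at -0.32 (SE 0.14, adjusted p = 0.2397). Intact and castrated arrays did not overlap for UBE2Q1, USP10, UBE2J2 and USP20, and USP20 was the gene for which the intact males were higher. Genes named for a small p, here and in the other comparisons, were picked on the same arrays. A lack of overlap therefore adds no separate support for them.

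Females were compared with intact males to ask how the sexes differ, with the same 3 intact males as in the castration comparison. No member passed the test in either direction, where 2.12% of all probe sets tested were higher in females and 3.37% lower. At an unadjusted p under 0.05, 8 members were higher (13.2% of all probe sets tested) and 5 were lower (14.5% of all). The median member difference was 0.067 (log2), beside 0.008 for all probe sets tested. The 6 smallest p belonged to USP2, USP28, UBE2G1, USP20, USP19 and UBE2S.

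For UBE2G1 the intensities were 1469, 2819 and 2737 in intact males, 2841, 2656 and 3344 in castrated males and 4192, 4149 and 3884 in females. The 3 females were above all 6 males, and intact male 1 was well below the rest. The female-minus-intact difference was 0.85 (SE 0.23, log2, adjusted p = 0.061). USP19, a protease with a form anchored in the endoplasmic reticulum that is induced in wasting muscle, read 255.4, 412.6 and 512.4 in intact males and 574.9, 650.2 and 702.4 in females. These groups did not overlap either, and intact male 1 was again the lowest; the difference was 0.73 (SE 0.22, adjusted p = 0.08107). USP28, described above for castration, differed by 0.67 (SE 0.18, adjusted p = 0.05854).

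The other pair was higher in intact males than in females. USP20 read 455.6, 488.2 and 365.2 in intact males, 336.6, 337.2 and 360.1 in castrated males and 331, 294.3 and 285.6 in females. Its female-minus-intact difference was -0.49 (SE 0.14, log2, adjusted p = 0.06802). UBE2S, which lengthens the chains that the anaphase-promoting complex starts, read 585.8, 430.5 and 496.7 in intact males and 362.8, 333.7 and 347.4 in females. Its difference was -0.51 (SE 0.16, adjusted p = 0.08319). No intact male overlapped with a female for USP20 or UBE2S.

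**Figure D2:**
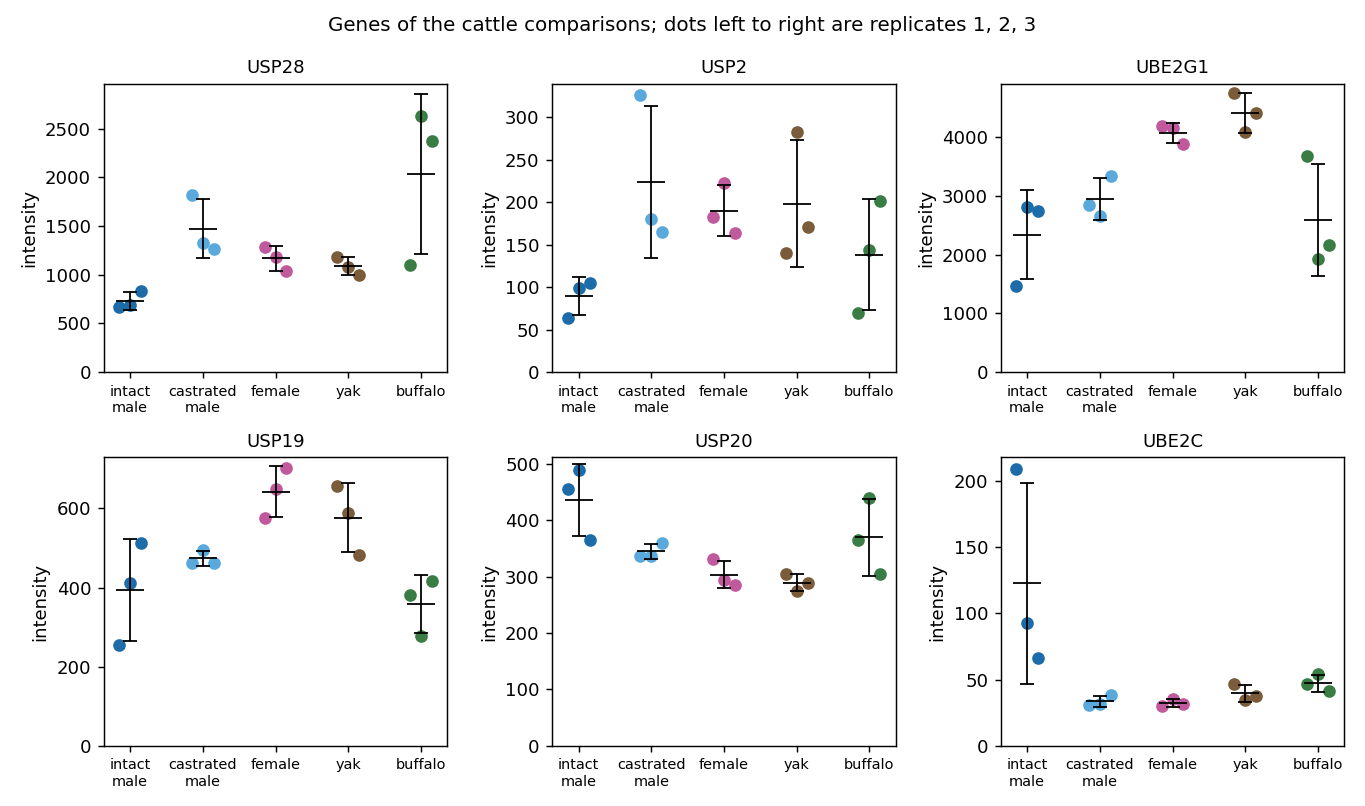
Intensity (y axis, from 0) on each array for the genes described among the cattle groups and for UBE2C, with dots from left to right for replicates 1 to 3 and bars for the mean and SD of 3 arrays. Among the 3 cattle groups, USP28 and USP2 sit lowest in intact males, and UBE2G1 and USP19 highest in females. Over all arrays UBE2C is highest in intact male 1, at 208.7, and UBE2G1 has its highest group mean in yak.

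Castrated males and females were set against each other to ask what remains of the sex difference after castration. No member passed the test, where 0.0139% of all probe sets tested were higher in females and 0.00694% lower. At an unadjusted p under 0.05 USP22 was the only member higher (3.98% of all probe sets tested), and no member was lower (3.57% of all). USP22 read 761.6, 790.2 and 711.2 in castrated males and 816.1, 1114 and 1008 in females. The groups did not overlap, and the difference was 0.36 (SE 0.15, log2, adjusted p = 0.6344). The next 5 by p were USP53, long classed as lacking protease activity (0.35), UBE2H (0.32), UBE2G1 (0.47), UBE2L6, which joins the ubiquitin-like protein ISG15 to its targets (-0.26), and USP19 (0.42). None of these 5 passed, with adjusted p values from 0.6751 to 0.7136.

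UBE2C, the conjugating enzyme that starts chains for the anaphase-promoting complex in mitosis, was below the intensity filter and so was not tested with the other members. It read 208.7, 92.99 and 66.2 in intact males, 30.56, 31.81 and 37.98 in castrated males, and 29.96, 35.56 and 31.67 in females. In yak it read 46.94, 34.54 and 37.64, and in buffalo 46.4, 53.89 and 41.24. All 3 intact males lay above all 12 other arrays, and intact male 1 was the highest of all. Without the filter the castrated-minus-intact difference was -1.36 (SE 0.29, log2, adjusted p = 0.06681) and the female-minus-intact difference -1.39 (SE 0.29, adjusted p = 0.04006).

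Of the marker lists, those of macrophage, cell cycle and fibroblast genes fell from intact male 1 to intact male 3, as UBE2C did. The macrophage list stood a median 3.322, 1.577 and 0.929 (log2) above castrated males and females in intact males 1, 2 and 3. For the cell cycle list the same values were 0.630, 0.323 and 0.191, and for the fibroblast list 2.138, 1.840 and 1.395. The other lists did not fall in that order. The interferon response list gave 0.239, 0.230 and 0.608, for example, and the adipocyte list 0.305, 0.730 and 0.086. The summed intensity of 17 measured cell cycle genes spanned 2532 to 3639 in intact males, 2283 to 2441 after castration, 2006 to 2306 in females, 2191 to 2498 in yak and 2348 to 2757 in buffalo. None of the 10 cell cycle genes tested passed between castrated or female and intact cattle, though all 10 differences were negative in both comparisons. At an unadjusted p under 0.05, 3 were lower in castrated males (11.2% of all probe sets tested) and 5 in females (14.5% of all). The rest of the 17 were below the filter and were not tested. The part of macrophages, fibroblasts and dividing cells in the UBE2C, UBE2S, USP28 and USP2 values was not tested.

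Yak muscle was set against the mean of the 3 cattle groups. Of the 48 members 9 differed, 18.8%, where 29.1% of all probe sets tested differed. Of the 25 UBE2 genes 6 differed, 24%: UBE2H, UBE2E1, UBE2Q1 and UBE2G2 were higher in yak, and UBE2E2 and UBE2V1 lower. Of the proteases, USP16 and USP38 were higher and USP11 was lower. So 6 of 48 members were higher (13.2% of all probe sets tested) and 3 were lower (15.9% of all). The members' median difference was 0.063 (log2), beside -0.025 for all probe sets tested. Each of the 9 genes had differences of the same sign in all alternative settings, and UBE2E2, UBE2H and USP16 kept their call in every setting that tested them.

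UBE2H, the partner of the CTLH ligase that is best known from maturing red blood cells, read 1692, 1086 and 876 in yak. On the 9 cattle arrays it lay between 556.4 and 787.5. All yak arrays were above all cattle arrays, with yak 1 far above the others. The yak-minus-cattle difference was 0.90 (SE 0.19, log2, 1.86-fold, adjusted p = 0.003919), and the gene's other probe set differed by 1.05.

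UBE2E1 and UBE2E2, relatives that partner many ligases, differed from cattle in opposite directions in yak. UBE2E1 read 2411, 1991 and 2003 in yak and 1294 to 1672 in cattle, a difference of 0.52 (SE 0.13, log2, adjusted p = 0.01027). UBE2E2 read 56.74, 61.78 and 66.28 in yak and 76.06 to 111.4 in cattle, a difference of -0.43 (SE 0.09, adjusted p = 0.002883). Neither gene's yak arrays overlapped with cattle. UBE2E2 was a dim probe set, with no array above 111.4.

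UBE2V1, a variant that lacks the catalytic cysteine and forms a pair with UBE2N to build chains used in signalling, read 1004, 1194 and 1231 in yak and 1412 to 1939 in cattle. The groups did not overlap, and the difference was -0.56 (SE 0.13, log2, adjusted p = 0.007713). UBE2N itself and UBE2V2, the other variant, did not pass the test in yak. UBE2Q1 was higher by 0.45 (SE 0.13, adjusted p = 0.02188). UBE2G2, which serves the disposal of proteins from the endoplasmic reticulum, was higher by 0.45 (SE 0.15, adjusted p = 0.03267).

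USP16, a protease that removes ubiquitin from histone H2A, gave the smallest p of the members in yak. It read 812.2, 794.4 and 634.9 in yak and 374.3 to 479.4 in cattle. No yak array overlapped with cattle, and the difference was 0.76 (SE 0.12, log2, 1.70-fold, adjusted p = 0.00047). USP38 read 1692, 1249 and 1477 in yak against 455.2 to 1263 in cattle, so yak 2 overlapped with female 3, and the difference was 0.67 (SE 0.19, adjusted p = 0.01665). USP11, one of a subfamily with USP4 and USP15 that acts on TGF-beta signalling among others, was lower by 0.41 on the log2 scale in yak (difference -0.41, SE 0.11, adjusted p = 0.01495).

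Several of the yak calls rested on particular animals. Without yak 1, UBE2E1 (adjusted p = 0.07562), UBE2V1 (0.05965), UBE2G2 (0.1559), UBE2Q1 (0.1311) and USP38 (0.1011) did not pass by the limma test. USP11 did not pass without yak 3 (adjusted p = 0.08997). With cattle taken as castrated males and females only, UBE2G2, UBE2Q1 and USP38 were lost. That setting leaves out the intact males, which were the lowest of the cattle groups for UBE2G2, UBE2Q1 and USP38.

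**Figure D3:**
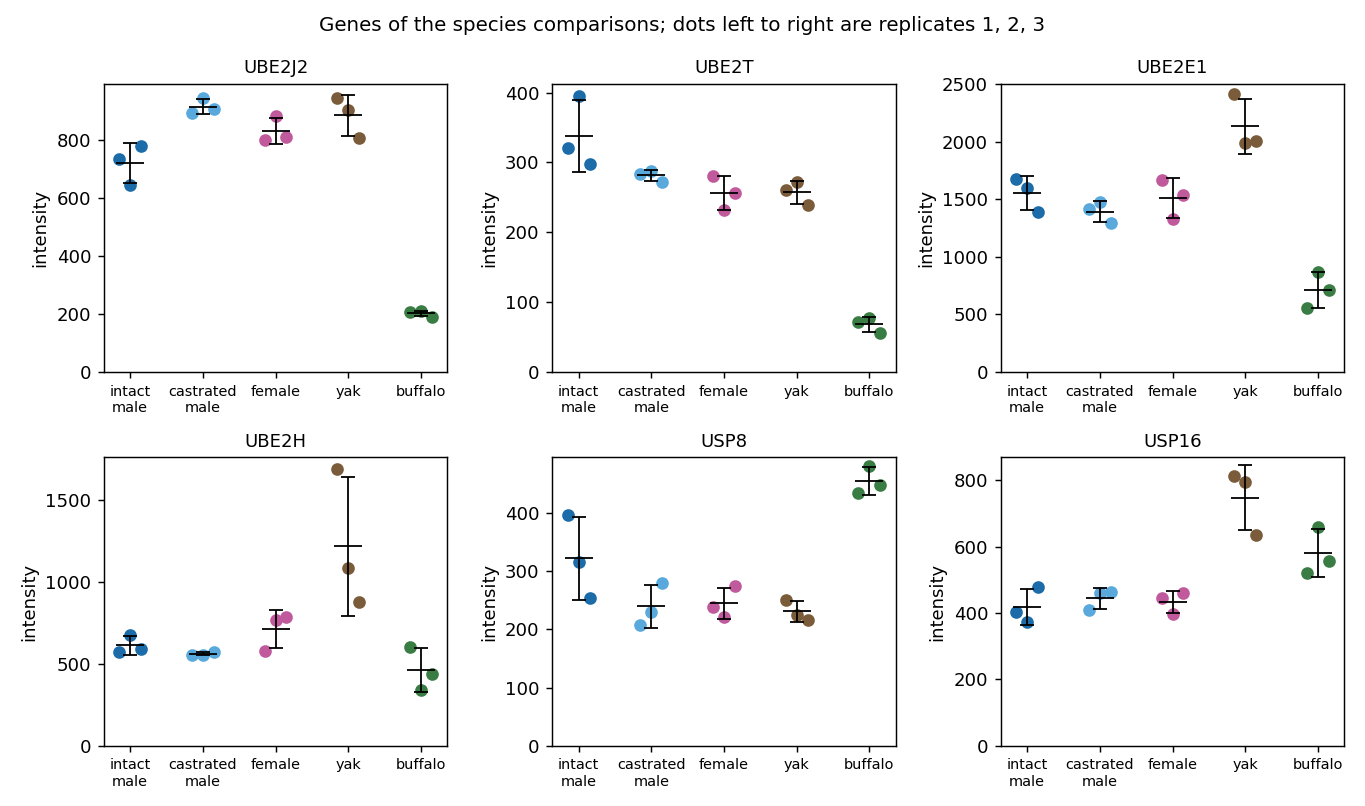
Intensity (y axis, from 0) on each array for 6 genes of the species comparisons, with dots from left to right for replicates 1 to 3 and bars for the mean and SD of 3 arrays. UBE2J2, UBE2T and UBE2E1 lie below every other array in buffalo, UBE2H and USP16 are highest in yak, and USP8 is highest in buffalo.

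Buffalo muscle differed from cattle in 22 of the 48 members. Of the 25 UBE2 genes, 10 were lower in buffalo and none was higher in the values as deposited, while after quantile normalisation between arrays 10 were lower and 5 higher. Of the 23 USP genes, 8 were higher and 4 were lower (8 and 3 after quantile normalisation). Together 8 members were higher (23% of all probe sets tested) and 14 were lower (28.4% of all). Among all 7139 genes tested, 19.9% were higher and 31.2% lower. The median difference was -0.234 (log2) over the UBE2 genes, -0.036 over the USP genes, -0.08 over all genes tested and -0.026 over all probe sets tested.

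The split between directions depended on scaling. After quantile normalisation, 13 members were higher and 13 lower in buffalo than in cattle. That step took the members' median difference from -0.075 to 0.106 (log2) and that of all probe sets tested from -0.026 to 0.066. It left a median difference of -0.009 over the UBE2 genes and 0.189 over the USP genes. The 5 UBE2 genes that passed as higher only after it were UBE2A, UBE2D3, UBE2N, UBE2V2 and UBE2Z. UBE2D2 and USP5 were no longer lower, and UBE2J1 became lower.

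UBE2J2 gave the smallest p of the members in buffalo. It read 206.5, 209.6 and 191.1 there, and between 646 and 946.5 on the 12 other arrays. The difference from cattle was -1.94 on the log2 scale (SE 0.09), so cattle were 3.82-fold higher (adjusted p = 5.976e-09). The buffalo values were close together and far from every other array. UBE2G2 and UBE2J1, the other measured conjugating enzymes of the endoplasmic reticulum, did not pass as deposited, with differences of -0.07 and -0.23.

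UBE2T, which works with the FANCL ligase in the Fanconi anaemia pathway of DNA repair, read 71.73, 77.18 and 55.66 in buffalo and 232.3 to 395.7 elsewhere. Cattle were 3.65-fold higher (difference -1.87, SE 0.11, log2, adjusted p = 2.036e-08). The yak arrays, at 261, 271.9 and 239.7, lay within the cattle range. UBE2S, a mitotic enzyme, showed no such gap, with a buffalo mean of 388.6 ± 23.89 (SD, n = 3) inside the spread of the cattle groups.

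Of the 9 tested conjugating enzymes that partner many ligases, 6 were lower in buffalo and none was higher, with a median difference of -0.457 (log2); after quantile normalisation 5 were lower and 1 higher. Over all probe sets tested 28.4% were lower and 23% higher, so a lower call was common in this comparison. UBE2E1 read 554.9, 869.9 and 710.3 in buffalo, all below the lowest cattle array at 1294, and differed by -1.06 (SE 0.13, adjusted p = 2.126e-05). UBE2W, which attaches ubiquitin to the N-terminus of its substrates, read 125.4, 167.5 and 133.7 against 206.8 to 427.4 in cattle and differed by -0.88 (SE 0.17, adjusted p = 0.0007209). The buffalo arrays were below every cattle array for both UBE2E1 and UBE2W.

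UBE2D4 differed by -1.30 (SE 0.22, log2, adjusted p = 0.0002369), with 580, 436.6 and 562.2 in buffalo against 664.5 to 1862 in cattle. Its other tested probe set differed by 0.23, in the opposite direction, so the gene has no single answer here. UBE2E2 differed by -0.44 (SE 0.09, adjusted p = 0.0009151). UBE2L3, which hands ubiquitin only to ligases that take it on a cysteine, differed by -0.57 (SE 0.12, adjusted p = 0.001437). UBE2D2 differed by -0.34 (adjusted p = 0.01156), and without buffalo 1 or buffalo 2 it did not pass.

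The inactive variant UBE2V1 was lower in buffalo as it was in yak, at 715, 1022 and 1107. Its difference from cattle was -0.84 (SE 0.13, log2, adjusted p = 0.0001679). No buffalo array reached the lowest cattle array of 1412. UBE2V2, which also lacks the catalytic cysteine, read 428.8, 655.2 and 546.3 in buffalo and 341.4 to 511.6 in cattle, overlapping, with a difference of 0.35 that did not pass. UBE2F, which conjugates the ubiquitin-like protein NEDD8 to cullins, was lower, with a difference of -0.50 (SE 0.12, adjusted p = 0.003511).

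The proteases went both ways in buffalo. USP18, which removes ISG15 and restrains interferon signalling, read 211.5, 287.3 and 270.9 in buffalo against 88.38 to 147.3 in cattle. The groups did not overlap, and the difference was 0.95 (SE 0.14, log2, 1.93-fold, adjusted p = 9.307e-05). The second tested probe set of USP18 differed by -0.03, so the higher level rests on the brighter one. ISG15 itself did not pass between buffalo and cattle.

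USP8, which works at the endosome and spares receptors from the lysosome, was higher on both of its probe sets. The brighter one read 433.5, 481.2 and 448 in buffalo and 208 to 396.4 in cattle. No buffalo array overlapped with cattle, of which intact male 1 was nearest. The difference was 0.75 (SE 0.13, log2, adjusted p = 0.0002829) on this probe set and 0.59 on the other.

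Other proteases were higher in buffalo with less even arrays. USP28 read 1098, 2630 and 2368 in buffalo, so buffalo 1 lay within the cattle range of 663.5 to 1817 while the other arrays lay above it. Its difference was 0.82 (SE 0.21, log2, adjusted p = 0.005998), and it did not pass without buffalo 2 (adjusted p = 0.05586) or with cattle as castrated males and females only (0.06368). USP42 read 562.1, 490.9 and 461.9 against 282.1 to 405 in cattle, with no overlap, and differed by 0.55 (SE 0.12, adjusted p = 0.001604). USP33, a close relative of USP20, differed by 0.50 (SE 0.15, adjusted p = 0.0136), and USP16 by 0.41 (SE 0.12, adjusted p = 0.01001); without buffalo 2 neither passed.

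The last pair of higher proteases, USP4 (0.31, adjusted p = 0.04407) and the proteasome-bound USP14 (0.30, adjusted p = 0.04894), lay at the threshold. USP4 was called in 13 of 24 alternative settings and USP14 in 11 of 25. Leaving out buffalo 1 or 2 ended the USP4 call, and leaving out buffalo 2 or 3 ended that of USP14, as did several single cattle or yak arrays for both genes.

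The lower proteases in buffalo were USP22, USP39, USP11 and USP5. USP22 read 502.5, 400.5 and 471.7 against 711.2 to 1114 in cattle and differed by -0.87 (SE 0.11, log2, adjusted p = 3.187e-05). USP39, a splicing factor that has the protease fold but lacks the catalytic residues, read 352.9, 316.5 and 341.3 in buffalo. All buffalo arrays of USP22 were below cattle, while for USP39 intact male 1, at 343.5, fell among the buffalo values and the other 8 cattle arrays lay between 532.7 and 675.3.

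The USP39 difference was -0.70 (SE 0.15, log2, adjusted p = 0.001229). USP11 differed by -0.54 (SE 0.11, adjusted p = 0.001199), and was thus lower than cattle in buffalo and in yak. USP5, which takes apart free ubiquitin chains, differed by -0.29 (SE 0.09, adjusted p = 0.01906), and did not pass without buffalo 1 or 2.

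**Figure D4:**
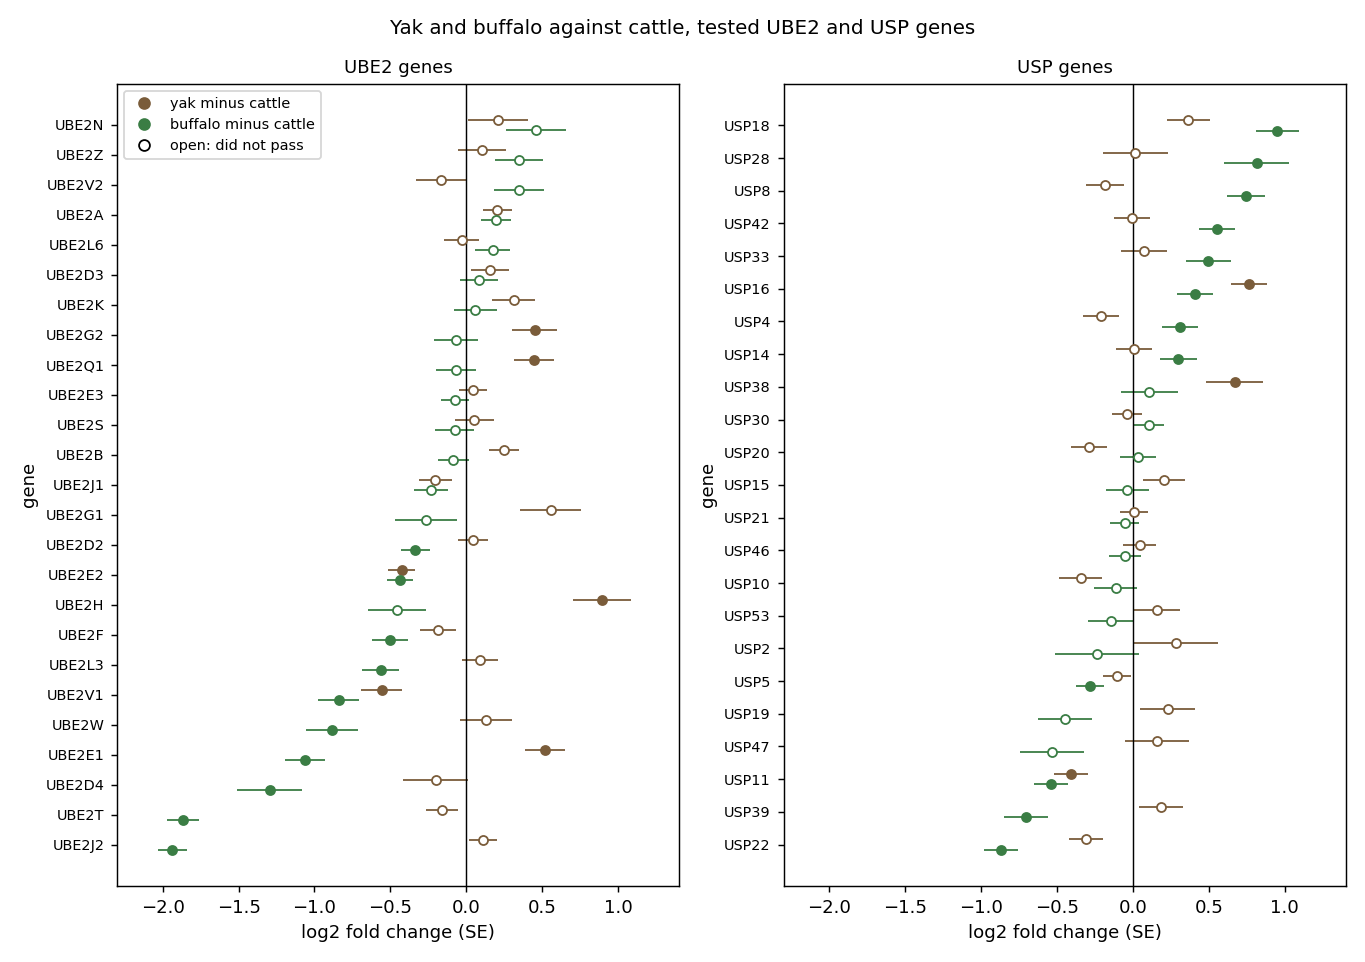
Points show each tested gene's log2 fold change in yak minus cattle and in buffalo minus cattle, with bars for the standard error from limma; the 2 comparisons share the same 9 cattle arrays. In buffalo, UBE2J2 (-1.94) and UBE2T (-1.87) stand farthest from 0 on the lower side and USP18 (0.95) and USP28 (0.82) on the higher side.

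Of the 22 members that differed between buffalo and cattle, 15 kept the call in every setting that tested them. They were UBE2D4, UBE2E1, UBE2E2, UBE2F, UBE2J2, UBE2L3, UBE2T, UBE2V1, UBE2W, USP8, USP11, USP18, USP22, USP39 and USP42. No setting exchanged the probe set of a gene, and the second probe sets of UBE2D4 and USP18, given above, did not pass. The actin 3' to 5' ratios of buffalo and yak, given above, lay mostly above those of cattle, while the GAPDH ratios of yak lay within the cattle range. The part of RNA quality in the species differences was not tested.

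Buffalo and yak were also compared directly, a comparison that shares its arrays with the ones above. As deposited, 12 of 25 UBE2 genes were lower in buffalo and none was higher, and after quantile normalisation 7 were lower and 1 higher. Of the 23 USP genes, 5 were higher and 4 lower (8 and 1 after quantile normalisation). In all 5 members were higher (19.5% of all probe sets tested) and 16 were lower (22.7% of all). Among all 7139 genes tested, 17.6% were higher and 25.8% lower. The median difference was -0.317 (log2) over the UBE2 genes, -0.097 over the USP genes, -0.04 over all genes tested and 0.013 over all probe sets tested. Over both families quantile normalisation gave 9 members higher and 8 lower.

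UBE2J2 differed by -2.05 (SE 0.12, log2, adjusted p = 4.843e-08), UBE2T by -1.71 (SE 0.13, adjusted p = 5.127e-07) and UBE2E1 by -1.58 (SE 0.16, adjusted p = 6.806e-06). Buffalo and yak arrays did not overlap for any of these. UBE2H, high in yak, read 604.9, 340.7 and 439.6 in buffalo, and yak was 2.55-fold higher (difference -1.35, SE 0.23, adjusted p = 0.0005065). UBE2W (-1.01), UBE2L3 (-0.65), UBE2D4 (-1.09) and UBE2G1 (-0.82) made up the 8 lower UBE2 genes with the smallest p. UBE2G1 read 3686, 1930 and 2168 in buffalo against 4081 to 4749 in yak, so the groups did not overlap, and its call was lost without yak 1, buffalo 2 or buffalo 3, and under quantile normalisation (-0.59, adjusted p = 0.08211).

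Of the proteases, USP8 was higher in buffalo than in yak by 0.93 (SE 0.16, log2, adjusted p = 0.0003748), and USP42 (0.56), USP4 (0.52), USP18 (0.59) and USP28 (0.80) were higher too. The USP28 call was lost without yak 2, yak 3, buffalo 2 or buffalo 3, that of USP18 without yak 2 or buffalo 2, and that of USP4 without yak 1. USP39 was lower, with a difference of -0.89 (SE 0.18, adjusted p = 0.001415), as was USP22 (-0.56). The lower proteases also included USP19 (-0.67, adjusted p = 0.02454) and USP47 (-0.69, adjusted p = 0.04629). USP47 was called in 12 of 24 settings and was lost when yak 1, yak 2 or any of the 3 buffalo arrays was left out. The USP22 call was lost under quantile normalisation, and that of USP19 under it and without yak 1, yak 2 or buffalo 2. Of the 21 members that differed between buffalo and yak, 10 kept the call in every setting that tested them: UBE2D4, UBE2E1, UBE2H, UBE2J2, UBE2L3, UBE2T, UBE2W, USP8, USP39 and USP42. Here too the probe set stayed the same in every setting.

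For 15 tested members a second probe set was tested, which gave a second reading of the same gene on the same RNA. The signs of the pair agreed for 10 of 15 genes in yak minus cattle and for 6 of 15 in buffalo minus cattle. Where the brightest probe set passed in buffalo minus cattle, for 5 genes, the other passed the same way for 1 (USP8). It did not pass for the other 4, UBE2D4, USP14, USP18 and USP33. In buffalo minus yak the brightest probe set passed for 5 of these genes, and the other passed the same way for 3 and did not pass for 2. UBE2A, a near twin of UBE2B, differed by 0.19 in buffalo on the brighter probe set and by -1.47 (log2, adjusted p = 2.996e-06) on the other, so the gene passes as lower on a probe set that the rule did not choose. UBE2L6 differed in the same way, by 0.17 and by -1.13 (adjusted p = 0.0003564). In yak the pairs of UBE2H (0.90 and 1.05), USP38 (0.67 and 0.63) and UBE2G2 (0.45 and 0.37) lay close together, while USP46 gave 0.04 and -0.88 (adjusted p = 0.002946). Of the second probe sets of UBE2H, USP38 and UBE2G2, 1 passed the same way as the brightest and 2 did not pass.

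**Figure D5:**
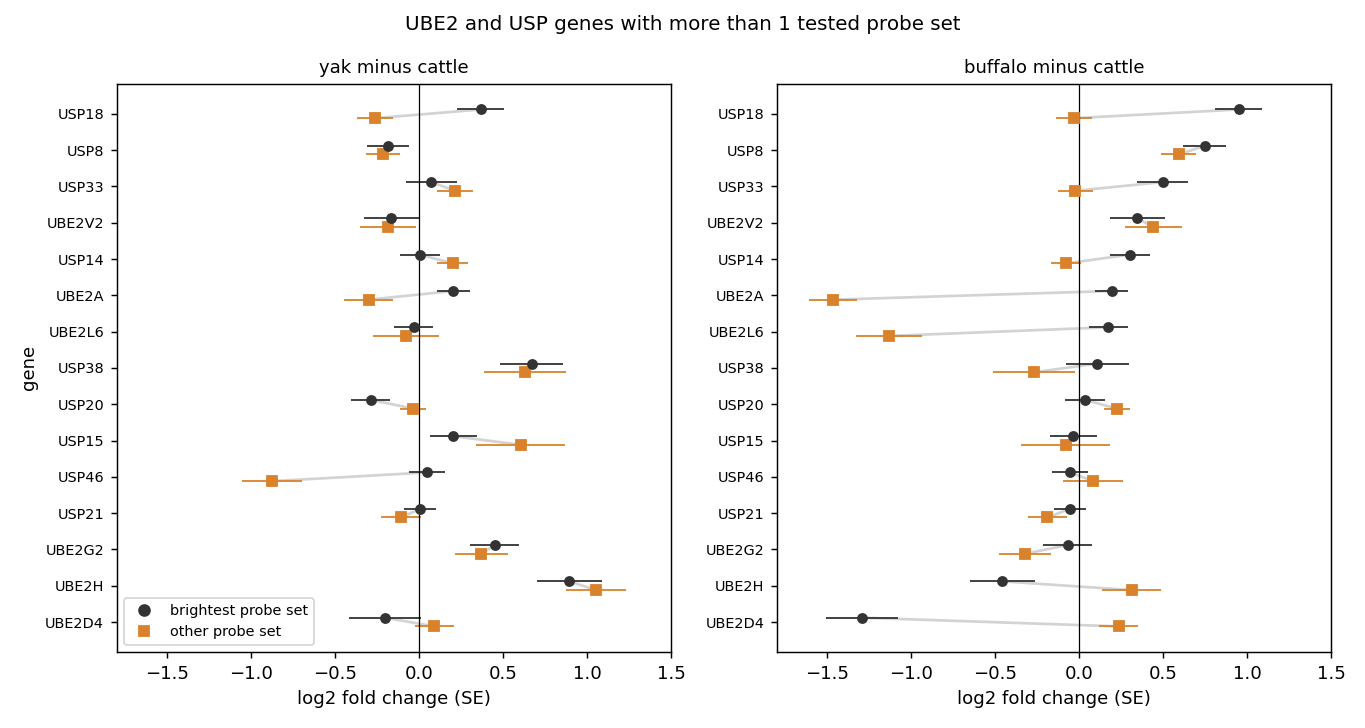
For each gene with more than 1 tested probe set, the circle is the brightest probe set used for the gene and the square the other, on a log2 fold change axis with standard errors. In buffalo minus cattle the pairs of UBE2D4, UBE2A and UBE2L6 lie on opposite sides of 0, while those of USP8 (0.75 and 0.59) lie together.

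The 4 proteases below the filter were read without it. USP3, which acts on histones H2A and H2B, read 107, 101.2 and 96.53 in buffalo and 36.53 to 54.47 on the 12 other arrays. Every buffalo array was above every other array, and without the filter the difference from cattle was 0.96 (SE 0.08, log2, adjusted p = 9.033e-07). USP12, a partner of UAF1, differed from cattle by 0.44 in yak (SE 0.10, adjusted p = 0.005745) and by 0.36 in buffalo (SE 0.10, adjusted p = 0.007436). USP37 and USP50, the latter regarded as an inactive member of the family, did not pass in any comparison.

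The rest of the pathway was read from lists of related genes, whose counts stand beside the shares over all probe sets tested. Those shares were 23% higher and 28.4% lower in buffalo minus cattle, 13.2% and 15.9% in yak minus cattle, 19.5% and 22.7% in buffalo minus yak, 2.12% and 3.37% in female minus intact male, and 0.625% and 0.84% in castrated minus intact male. Of 6 measured precursors of ubiquitin and ubiquitin-like proteins, none passed in cattle or in buffalo minus cattle as deposited, where 2 were higher after quantile normalisation, and ISG15 was lower in yak than in cattle (difference -1.09, log2). Its group means were 415.2 in intact males, 112.8 in castrated males, 179.3 in females and 82.74 in yak, and yak 3 (98.1) overlapped with female 1 (87.33). Of 8 activating enzymes, UBA6, which charges UBE2Z, was lower in castrated than in intact males (difference -0.73, adjusted p = 0.04411), at 101.6, 86.28 and 87.64 in intact and 43.59, 49.32 and 54.73 in castrated males. In buffalo 3 activating enzymes were higher than in cattle (5 after quantile normalisation), UBA6 (0.98), MOCS3 (0.60) and UBA3 (0.66), and 2 were lower, among them SAE1 (-1.30), a subunit of the SUMO activating enzyme. UBA7, the activating enzyme for ISG15, was lower in yak (-0.58), and NAE1, which serves NEDD8, was higher (0.38). UBA7 group means were 209.7 in intact males, 124.2 in castrated males, 141.8 in females and 96.76 in yak.

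Proteins with the conjugating fold but another name were also read. Of 5 measured, 4 were lower in buffalo than in cattle and none was higher (2 and none after quantile normalisation), where 28.4% of all probe sets tested were lower: TSG101 (-0.43), an inactive relative that sorts ubiquitinated cargo, CDC34 (-0.99), a cullin partner, BIRC6 (-0.41) and UFC1 (-0.48), all log2 differences. In buffalo minus yak 3 of the 5 were lower, and none passed in yak minus cattle or among the cattle groups.

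A list of deubiquitinases and related proteins outside the USP family, COPS5 and COPS6 among them, went both ways. Of 22 tested, 8 were higher and 6 lower in buffalo than in cattle (11 and 4 after quantile normalisation), where 23% of all probe sets tested were higher and 28.4% lower. MYSM1, which acts on histone H2A, read 459.5, 524.9 and 540.5 in buffalo against 106.1 to 238 in cattle, a difference of 1.65 (log2, adjusted p = 1.915e-06). UCHL5, a proteasome-bound protease, read 864.7, 891.9 and 961.9 against 1880 to 2923 in cattle and differed by -1.39 (adjusted p = 1.984e-06). Neither gene's buffalo arrays overlapped with cattle. COPS5 (-0.65) was lower and BRCC3 (0.63) higher. In yak 6 were higher (13.2% of all probe sets tested) and 2 lower (15.9% of all) than in cattle, among them COPS6 (0.43), UCHL3 (0.54), JOSD1 (0.76) and MINDY2 (-0.66). In cattle 1 passed, ZRANB1, higher in females than in intact males (1.04).

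Of 9 proteases for ubiquitin-like proteins, DESI2 was higher in females than in intact males (0.36) and in buffalo than in cattle (0.77, log2). Altogether 2 of the 9 were higher and 1 lower in buffalo than in cattle (4 and 1 after quantile normalisation), and 4 were higher and 1 lower in yak. UFSP1 (0.69), UFSP2 (0.60) and SENP2 (0.38) were higher in yak and ATG4B lower (-0.61). Of 10 proteins that bind USP enzymes, none passed in cattle. In buffalo PSMD2 (0.54) and GMPS (0.61), a binder of USP7, were higher than in cattle and PSMD4 (-0.80) was lower (4 higher and 1 lower after quantile normalisation), and in yak GMPS (0.54) and PSMD4 (0.43) were higher.

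Of 13 tested ligases known from muscle, 3 were higher in females than in intact males and none was lower, where 2.12% of all probe sets tested were higher and 3.37% lower. FBXO32 read 890.9, 2529 and 1442 in intact males and 3281, 4400 and 6129 in females, with no overlap, and differed by 1.58 (log2, adjusted p = 0.03651). FBXO40 (1.78) and NEDD4L (1.30) were the other higher ligases. None of the 13 passed between castrated and intact males, where 5 were higher at an unadjusted p under 0.05 (9.27% of all probe sets tested). In buffalo 2 were higher and 2 lower than in cattle (5 and 2 after quantile normalisation), ASB5 (0.85), TRIM54 (0.68), STUB1 (-0.99) and ASB2 (-1.56), and in yak NEDD4L (1.83) was higher.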

How the data were processed

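The deposited table gave 1 linear intensity per probe set and array; how the authors corrected, normalised and summarised the probes is not stated in the labels or header, and it held no detection calls. Of 24128 probe sets, 112 controls were left out. Intensities were taken as log2(value + 16), probe sets above the 40th percentile of the mean log2 value were kept, and limma 3.58.1 in R 4.3.3 (lmFit, eBayes with trend) was fitted to 9 cattle arrays for the cattle comparisons and to all 15 for the species, where the 3 cattle group means were averaged. Differences are on the log2(value + 16) scale, which understates those of dim genes. Adjusted p values are Benjamini-Hochberg over 14409 probe sets, with a threshold of 0.05. An exact permutation test of 3 against 3 cannot go below 0.1. Replicates are labelled biological. The number of arrays limits the precision. Gene names come from the platform annotation: 13292 probe sets had 1 symbol, 86 several and 10638 none, and 13263 matched a current gene entry with 0 symbols changed. The pipeline was tested on simulated data.

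The named genes are the members with the smallest p per comparison (at most 8 that passed in each direction, or the first 6 where fewer than 5 passed), the brightest and the widest ranging, those with no catalytic activity, members of role groups, and up to 4 called genes per pathway list. The members and lists were chosen with earlier results of these data known. Alternatives were another added value, another filter or none, quantile normalisation, no variance trend, array weights, a replicate block, other samples in the fit, cattle without intact males and leaving out each array.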

Additional observations from a re-analysis of the deposited data

How the results depend on the processing

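No direction reversed: over 53 gene results that passed and 1294 values under alternatives, 1182 kept their call and 112 kept the direction only. The 53 were chosen for passing on the same arrays, so a reversal was unlikely beforehand. Second probe sets were not among the alternatives, and that of UBE2D4 had the opposite sign in buffalo minus cattle. Array weights, whose estimation stopped before convergence, raised the members called to 10 in castrated minus intact males (24.5% of all probe sets called), 23 in female minus intact male (35.2%) and 17 in yak minus cattle; the cause was not tested. Female minus intact male gave 1 member with no filter (UBE2C, which only then was tested) and 4 with cattle fitted with all 15 arrays. Leaving out 1 array gave 0 to 2 members for castrated minus intact males and 0 to 6 for female minus intact male (6 without intact male 3, 1 without intact male 1 or castrated male 1). It gave 4 to 12 for yak minus cattle (4 without yak 1), 15 to 26 for buffalo minus cattle and 13 to 24 for buffalo minus yak (13 without yak 1 or yak 2). Here and below, counts with no share of all probe sets beside them do not set the members apart from other genes.

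Replicate numbers are shared between groups, but no label gives a shared animal, litter or day. The correlation of deviations of same-numbered arrays ran from -0.326 to 0.145, was over 0.1 for all 3 numbers in 0 of 10 group pairs, and was highest for the own number in 18 of 60 comparisons. With the replicate block, castrated minus intact males gave 0 members called, buffalo minus cattle 21 and buffalo minus yak 19, and yak minus cattle 9 as without it. With cattle as castrated males and females only, yak minus cattle gave 7 members and buffalo minus cattle 23. Depth is not defined for arrays; without detection calls, dim probe sets such as UBE2E2 and UBE2C may carry little signal above background.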
